A study of Mus musculus with 15 samples.

Results

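Kidneys of male C57BL/6 mice that received EtOH for 4 weeks after 6 weeks of olive oil by intraperitoneal injection (EtOH, 4 libraries) were compared with kidneys of male C57BL/6 mice that received the 6 weeks of olive oil alone (olive oil, 3 libraries). Members were chosen by their labels: these 7 libraries are all those of both groups with a column in the table of read counts, out of 14 libraries in all. Another olive oil sample was not analysed here. The remaining libraries came from mice given CCl4, the liver and kidney toxicant carbon tetrachloride, with or without EtOH. Both groups compared here carried the oil vehicle, and no group received 10 weeks of oil without ethanol, so ethanol and the 4 added weeks cannot be told apart. The labels give no ethanol dose, route or age. They number each mouse, and p-values cover the spread between these numbered mice.

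Most RNA of a mouse kidney comes from the tubules, above all the proximal tubule, which takes back sugars, amino acids and proteins from the filtrate and exports organic anions and drugs. In male mice androgens set the level of many of its genes. The kidney also oxidises ethanol, makes active vitamin D and houses macrophages and dendritic cells that present antigen on MHC class II molecules.

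Totals ran from 16.4 to 23.6 M counts, the latter in olive oil replicate 2 and the former in EtOH replicate 4. Levels are given in CPM, the usual scale of reads per library size, with libraries scaled by TMM. All 30 markers of the proximal tubule, the main kidney segment, were detected in both groups. The summed level of these genes was 42710 to 52310 CPM after olive oil and 46620 to 50570 CPM after EtOH. Principal components were computed without the listed markers of adrenal cortex and chromaffin cells, and other genes that adrenal tissue expresses stayed in. On the first component, with 36.2% of the variance, olive oil libraries lay at -12.5, -20.5 and -26.6. EtOH libraries lay at 30.4, 9.47, 20.3 and -0.542. EtOH replicate 4 thus lay nearest to the olive oil group, and on the second component, with 19.7%, it stood at 26.9 against -19.9 for EtOH replicate 1.

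EtOH replicates 1 to 3 also held RNA of the adrenal gland, which lies on the kidney, and EtOH replicate 4 and the olive oil libraries held little or none. Cyp21a1, the steroid 21-hydroxylase of the adrenal cortex, stood at 0.0569, 0.128 and 0.0524 CPM in olive oil replicates 1 to 3, 181, 176 and 234 CPM in EtOH replicates 1 to 3 and 0 CPM in EtOH replicate 4. Star, which delivers cholesterol to the mitochondria for steroid synthesis, stood at 4.78, 5.07 and 5.03 CPM in olive oil replicates 1 to 3, 192, 209 and 260.7 CPM in EtOH replicates 1 to 3 and 6.27 CPM in EtOH replicate 4. Chga, the chromogranin of secretory granules in the chromaffin cells of the adrenal medulla, stood at 0.114, 0 and 0 CPM in olive oil replicates 1 to 3, 58.9, 24.1 and 43.8 CPM in EtOH replicates 1 to 3 and 0 CPM in EtOH replicate 4. The 3 EtOH libraries were thus high for cortex and medulla genes alike, while EtOH replicate 4 lay beside olive oil.

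Other enzymes of the cortex had the same pattern. Cyp11b1 and Cyp11b2, which finish corticosterone and aldosterone, had 0 counts in all olive oil libraries, reached 99.9 to 212 CPM and 8.70 to 11.6 CPM in EtOH replicates 1 to 3, and were at 0.184 and 0 CPM in EtOH replicate 4. Over the EtOH group this was at least 2400-fold higher for Cyp11b1 and at least 157-fold for Cyp11b2, set against 3 counts over the olive oil group (0.0499 CPM). The enzymes of catecholamine synthesis Th, Dbh and Pnmt, and the granule protein Scg2, also had 0 counts in every olive oil library and in EtOH replicate 4, with 7.37 to 21.7 CPM, 5.83 to 16.1 CPM, 2.79 to 7.27 CPM and 19.5 to 43.6 CPM in the other EtOH libraries. Chgb, a second granin, had 2 counts in olive oil and 3771 after EtOH, a ratio of 1440 with an exact 95% interval of 398 to 11900 that covers counting error only.

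Of 15 adrenal cortex and 15 chromaffin genes, 3 and 5 had no count in any olive oil library and 5 and 7 none in EtOH replicate 4. The cortex list summed to 135 to 146.5 CPM in olive oil, to 1024, 976.7 and 1434 CPM in EtOH replicates 1 to 3 and to 131.6 CPM in EtOH replicate 4. The chromaffin list summed to 278.5, 308.9 and 481.5 CPM in olive oil and to 503.5, 303.4, 376.1 and 233.7 CPM after EtOH, so its groups overlapped. Slc18a1, a vesicular amine transporter placed on the chromaffin list, did not share the pattern, with 270.5, 301 and 475 CPM after olive oil and 246, 199.8, 177 and 226 CPM after EtOH. Other members also lacked a marked rise. Ratios of EtOH over olive oil were 1.04 for Fdx1 and 1.09 for Soat1 of the cortex list. They were 1.39 for Slc18a2, 0.98 for Phox2a and 0.903 for Penk of the chromaffin list. In edgeR 0 of the 26 adrenal genes tested passed the threshold, and 20 had an unadjusted p under 0.05. DESeq2 called 18 of them, with 10 cortex and 7 chromaffin genes higher and 1 chromaffin gene, Slc18a1, lower. In limma-voom 0 passed, and edgeR called 18 without EtOH replicate 4. These genes stay apart from the kidney genes below. Most kidney genes are given with their level in EtOH replicate 4, but some are given by log2 change alone or by name.

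**Figure D1:**
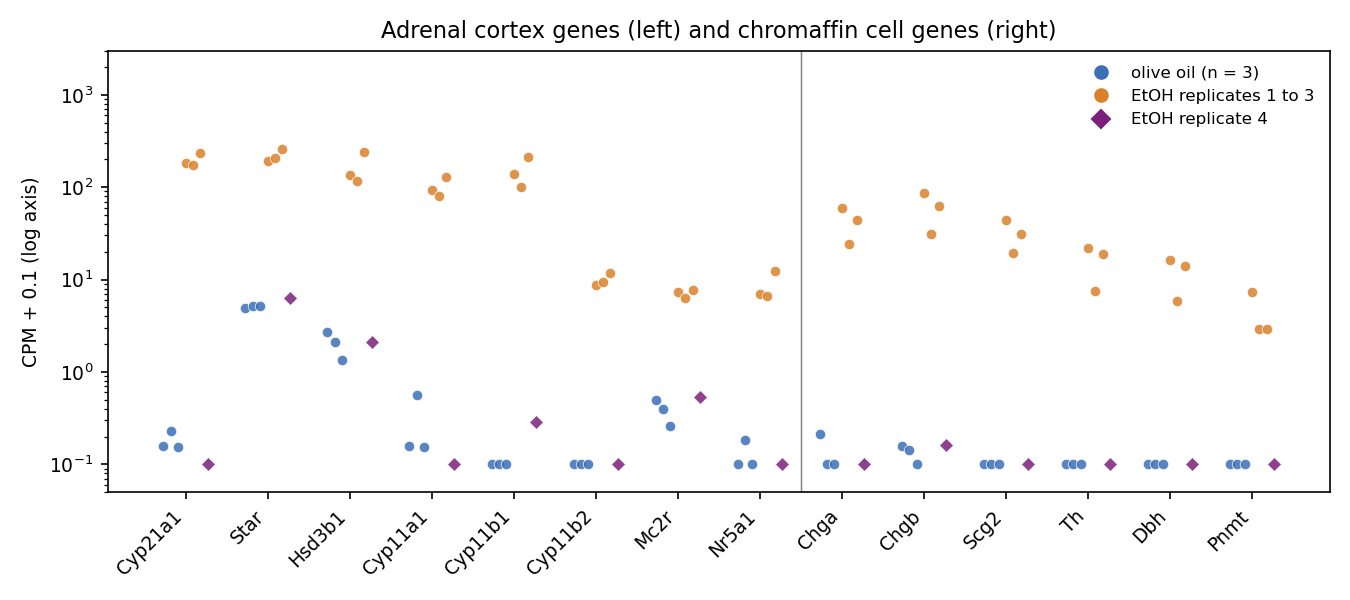
Levels of 8 adrenal cortex and 6 chromaffin cell genes in each library, as CPM + 0.1 on a log axis, so that a library with 0 counts sits at the lower edge of 0.1. EtOH replicates 1 to 3 stand above olive oil for each gene, and EtOH replicate 4 (diamonds) lies among the olive oil libraries or close to them.

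Outside the adrenal genes, the EtOH kidneys had less RNA of the androgen-dependent genes Kap, Cyp4a12a, Cyp4a12b and Gusb, of 4 MHC class II genes and of the isoprenoid enzyme Idi1, and more of the vitamin D carrier Gc, of the sugar transporter Slc5a10, of the microsomal glutathione transferases Mgst1 and Mgst3 and of the apolipoproteins Apoc3 and Apob. Of 15478 genes tested, 94 (0.607%) passed an adjusted p of 0.05, where 32 rose (0.207%) and 62 fell (0.401%). Changes over 2-fold were 18 of the rises and 19 of the falls. In edgeR 1984 of the 15478 genes had an unadjusted p under 0.05 in either direction, the background for the list counts at that cut. For all 94 the libraries of the groups did not overlap, which held for 12.1% of all genes tested, so EtOH replicate 4, which was in the fit that chose them, lay beyond every olive oil library too.

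The number of calls depends on the libraries in the fit. When all 14 libraries shared 1 estimate of the spread, 27 of 16105 genes passed (0.168%), of which 22 were among the 94. Of the 37 called genes that the naming rule chose, 12 passed there: Gc, Slc22a7, Slc5a10, Mgst1, Mgst3, Cyp4a12a, Akr1d1, Aldh1a1, Apoc3, Itih2, Nxpe3 and Cdkn1c. Kap and H2-Eb1 did not, each with an adjusted p of 0.0557, nor did Idi1 (0.0537), Cd74 (0.0535), H2-Ab1 (0.0627) and H2-Aa (0.117). The adrenal cortex list, as a mean of log2 CPM, stood at 1.46 in EtOH replicate 4, within the 1.41 to 1.53 of olive oil, and at 5.33 to 5.74 in the other EtOH libraries. With that value as a covariate, the group difference rests largely on EtOH replicate 4, the only EtOH library at an olive oil level. In that fit 2 genes passed. One was Gc. The other was Cd5l, a macrophage protein.

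Each library was also left out in turn. Gc, Akr1d1, Cyp4a12a, Cyp4a12b, Mgst1, Mgst3, Idi1, Nxpe3, Slc5a10, Kap, H2-Eb1, H2-Aa, H2-Ab1 and Cd74 passed in all 7 such fits. Slc22a7 lost its call without EtOH replicate 1, with an adjusted p of 0.0616, and Lrg1 and Gbp10 theirs without olive oil replicate 2, at 0.0646 and 0.0835. Me1 passed in 5 fits, Lyve1, Reep6, S100g, Gusb, Apoc3 and Aldh1a1 in 4, and Itih2, Gbp6 and Hs6st2 in 3. Ggt1, Lgi2, Vnn1 and Fcna passed in 2, and Gper1, Cdkn1c, Xcr1, Trank1 and Slco3a1 in 1. Apob passed in none, with adjusted p of 0.0655 to 0.168.

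EtOH replicate 4 was also set beside the genes called without it. Of the 59 genes that fell in that fit, 58 (98.3%) were lower in EtOH replicate 4 than in every olive oil library, against 27.7% of all genes. Of the 80 that rose outside the adrenal lists, 45 (56.2%) were higher there than in every olive oil library, against 27.3% of all genes. Of the 18 adrenal genes that rose, 5 were. These shares are a description with no test, and the same olive oil libraries enter both sides.

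**Figure D2:**
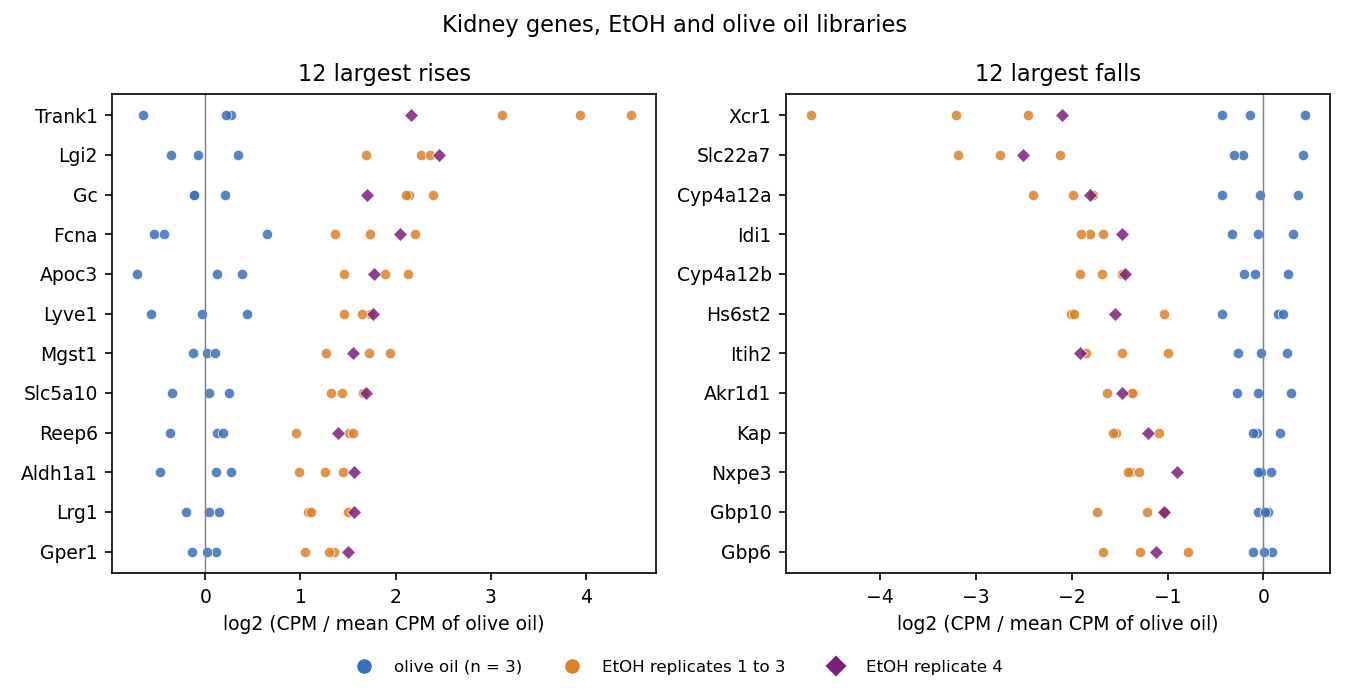
Level of each library relative to the mean of the olive oil libraries, as log2 of the CPM ratio, for the 12 kidney genes with the largest rise and the 12 with the largest fall. Circles are olive oil (n = 3) and EtOH replicates 1 to 3 and diamonds are EtOH replicate 4, and no gene shown has overlapping groups.

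Of 18 measured genes that androgens regulate in the male mouse kidney, 4 fell and 0 rose, and the median log2 change was -0.79 against 0.0039 over all genes tested. Kap, the kidney androgen-regulated protein of the proximal tubule and 1 of its most abundant transcripts, stood at 25400.1, 24709.6 and 30005 CPM in olive oil replicates 1 to 3 and 9178, 12512, 8970.5 and 11623 CPM in EtOH replicates 1 to 4. The EtOH libraries lay close together, and all of them were far below the lowest olive oil library. The log2 change of Kap was -1.34 ± 0.15 (SE) with adjusted p = 0.00697. Cyp4a12a, a fatty acid hydroxylase that makes 20-HETE, stood at 168, 221 and 292 CPM after olive oil and 66.4, 57.1, 42.9 and 64.9 CPM after EtOH. It fell with a log2 change of -1.97 ± 0.21 (SE) and adjusted p = 0.0121. Its near-identical neighbour Cyp4a12b fell as well, with 99.6, 137 and 107 CPM after olive oil and 35.7, 41.2, 30.3 and 42.2 CPM after EtOH, and reads may be split between these paralogs. Gusb, the lysosomal beta-glucuronidase, fell from 54.5, 55.3 and 74.7 to 39.4, 35.6, 35.6 and 31.5 CPM.

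Other members of the androgen list had lower values that did not pass. Cyp7b1, an oxysterol hydroxylase, had a log2 change of -1.76 ± 0.31 (SE) with adjusted p = 0.0802, and Acsm3 one of -1.64 ± 0.29 (SE) with adjusted p = 0.0659. Slc7a12 and Prlr, the prolactin receptor, had higher values, with log2 changes of 2.10 and 1.06 and adjusted p of 0.1005 and 0.291. The list and its median do not separate genes that androgens raise from genes that they lower.

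Akr1d1, the steroid 5-beta-reductase, fell from 51.3, 44.1 and 65.2 CPM to 20.8, 17.3, 20.6 and 19.3 CPM. All EtOH values sat within a narrow range, and the log2 change was -1.46 ± 0.13 (SE) with adjusted p = 0.00411.

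Genes of the MHC class II molecules fell. H2-Eb1, H2-Aa and H2-Ab1 encode chains of the class II molecules, and Cd74 encodes the invariant chain that guides them to the endosome. Of the 10 class II and antigen presentation genes tested, these 4 fell and 0 rose, and the list's median log2 change was -0.65. The promoters of H2-Aa and H2-Eb1 are shown because both carry the Y box of class II genes, CTGATTGG, which the factor NF-Y binds, and that of Idi1, the other leading fall described next, because it holds the same letters. Each runs from 250 bases before to 50 after the start site, from RefSeq on GRCm38.p6, at chr17:34287774-34288073 (minus strand), chr17:34305617-34305916 (plus strand) and chr13:8885356-8885655 (plus strand), with the motif in capitals. These 3 were chosen after their letters were searched, and the promoters of H2-Ab1 and Cd74 were not used here.
H2-Aa: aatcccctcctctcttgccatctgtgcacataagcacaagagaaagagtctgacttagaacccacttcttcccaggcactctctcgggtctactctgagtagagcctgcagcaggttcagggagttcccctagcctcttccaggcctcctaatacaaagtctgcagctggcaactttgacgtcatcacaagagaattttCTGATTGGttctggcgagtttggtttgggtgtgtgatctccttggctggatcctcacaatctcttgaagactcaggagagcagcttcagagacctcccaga
H2-Eb1: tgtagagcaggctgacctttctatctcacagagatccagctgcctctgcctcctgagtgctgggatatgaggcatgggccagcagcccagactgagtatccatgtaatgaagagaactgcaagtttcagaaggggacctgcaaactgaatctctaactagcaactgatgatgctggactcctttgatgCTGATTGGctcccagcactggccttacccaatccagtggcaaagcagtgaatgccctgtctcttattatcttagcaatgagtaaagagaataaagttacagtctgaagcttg
Idi1: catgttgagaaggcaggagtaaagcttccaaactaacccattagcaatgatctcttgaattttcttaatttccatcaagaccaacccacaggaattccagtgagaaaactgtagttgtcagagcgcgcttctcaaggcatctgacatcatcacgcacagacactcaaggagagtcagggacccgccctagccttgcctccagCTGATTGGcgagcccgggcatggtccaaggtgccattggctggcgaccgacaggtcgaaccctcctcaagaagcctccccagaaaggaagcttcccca
The motif begins 51, 62 and 48 bases before the start site in these promoters. On either strand (CTGATTGG or CCAATCAG) it stands in 1346 of 32851 promoters in the table, or 4.1%, and in 7 of the 84 promoters found for 64 of the called genes. The shorter CCAAT, contained in it on the reverse strand, stands in 37.4% of promoters and in 27 of those 84.

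H2-Eb1 stood at 92.3, 95.0 and 112 CPM in olive oil replicates 1 to 3 and 41.2, 56.5, 44.7 and 45.5 CPM in EtOH replicates 1 to 4. Every EtOH library lay far below every olive oil library, EtOH replicate 2 highest among them. The log2 change was -1.09 ± 0.11 (SE) with adjusted p = 0.00475. H2-Aa stood at 111, 111 and 136 CPM after olive oil and 51.1, 71.8, 60.0 and 61.1 CPM after EtOH, a log2 change of -0.97 ± 0.12 (SE). H2-Ab1 stood at 79.3, 79.9 and 99.1 CPM after olive oil and 40.3, 54.0, 44.0 and 45.7 CPM after EtOH, a change of -0.90 ± 0.11 (SE). Cd74 stood at 252, 250.5 and 308 CPM after olive oil and 109, 161, 122 and 121 CPM after EtOH, a change of -1.08 ± 0.13 (SE), again with EtOH replicate 2 the highest of its group. Ciita, the transactivator of class II genes, had values of 7.23, 6.52 and 7.75 CPM after olive oil and 4.26, 3.76, 4.58 and 4.49 CPM after EtOH that do not overlap, and a change of -0.75 ± 0.15 (SE) that did not pass, with adjusted p = 0.0640. The other members of the list that were tested, among them the peptide-loading subunit H2-DMa at -0.56, did not pass either.

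Cells that carry class II were measured through their own markers. Xcr1, the chemokine receptor of cross-presenting dendritic cells, fell from 1.20, 0.980 and 1.78 to 0.0478, 0.241, 0.143 and 0.307 CPM, a log2 change of -2.83 ± 0.48 (SE) with adjusted p = 0.0371. These are few reads, and EtOH replicate 1 had 1 of them. Of 6 other dendritic cell genes looked at, 0 passed in edgeR, DESeq2 or limma-voom, and 5 had an unadjusted p under 0.05 in edgeR. Cd209a, Batf3, Clec9a, Flt3 and Itgae had log2 changes of -2.26, -1.14, -1.002, -0.99 and -0.73, with adjusted p of 0.169, 0.179, 0.208, 0.327 and 0.181. Zbtb46, a transcription factor of classical dendritic cells, was at -0.03 ± 0.21 (SE) with adjusted p = 0.977. Of 19 macrophage genes tested 0 passed in edgeR, 2 had an unadjusted p under 0.05, DESeq2 called 2 and limma-voom 1. Their summed level was 310.3 to 452.2 CPM after olive oil and 249.4 to 424.9 CPM after EtOH, and these ranges overlap. Cx3cr1, the fractalkine receptor of kidney mononuclear phagocytes, was at 10.5, 8.52 and 8.85 CPM after olive oil and 2.87, 4.63, 3.82 and 6.46 CPM after EtOH, with adjusted p = 0.0866. In bulk tissue fewer cells of a type and less RNA per cell cannot be told apart.

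By contrast Lyve1 and Fcna rose. Lyve1, a hyaluronan receptor of lymphatic endothelium and some macrophages, rose from 2.39, 1.19 and 1.73 to 4.88, 5.88, 5.54 and 6.03 CPM, and Fcna, a ficolin of the complement system made by macrophages, from 2.33, 1.02 and 1.10 to 3.83, 4.92, 6.83 and 6.15 CPM. The log2 changes were 1.67 ± 0.24 (SE) and 1.88 ± 0.33 (SE).

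Among T and NK cell genes 0 of 10 tested passed in edgeR, 6 had lower values at an unadjusted p under 0.05, and DESeq2 and limma-voom called 0. The median log2 change was -0.99, and the summed level was 11.25 to 13.55 CPM after olive oil and 5.26 to 11.18 CPM after EtOH. Ccl5, a chemokine of activated T cells, stood at 1.08, 1.15 and 1.68 CPM after olive oil and 0.478, 0.530, 0.430 and 0.492 CPM after EtOH, with adjusted p = 0.0843. Of 33 interferon response genes 1 fell. Gbp6 is an interferon-inducible GTPase, and fell from 16.7, 19.2 and 18.1 to 7.36, 10.5, 5.63 and 8.30 CPM, as did its near-identical relative Gbp10, which is outside that list, from 11.3, 12.1 and 11.8 to 5.07, 5.73, 3.53 and 5.72 CPM. Iigp1, another such GTPase, lay at 17.8, 17.3 and 19.0 CPM after olive oil and 6.98, 14.02, 8.50 and 10.6 CPM after EtOH with adjusted p = 0.119. Of 14 MHC class I genes 0 passed in edgeR, 3 had an unadjusted p under 0.05, DESeq2 called 1 and limma-voom 0, and the median change was -0.028.

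**Figure D3:**
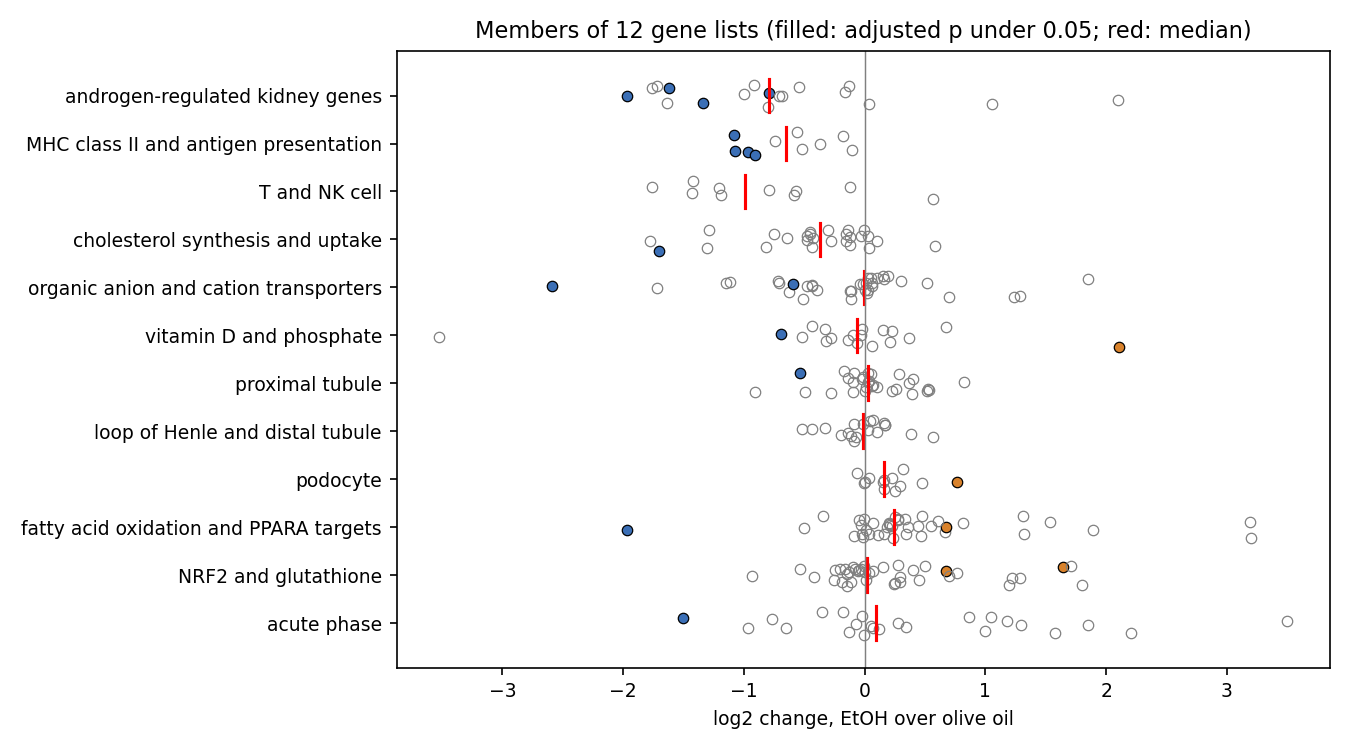
Log2 change (EtOH over olive oil) of every tested member of 12 gene lists, with filled points for genes past an adjusted p of 0.05 (orange rose, blue fell) and a red bar at the median. The MHC class II and androgen lists lie mostly to the left of 0, with medians of -0.65 and -0.79, and the acute phase and fatty acid oxidation lists have members far to the right that did not pass.

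Enzymes of isoprenoid and cholesterol synthesis were led by Idi1, the isopentenyl diphosphate isomerase whose promoter is printed above with the class II promoters. Idi1 stood at 97.6, 80.6 and 126 CPM in olive oil replicates 1 to 3 and 31.7, 28.9, 27.1 and 36.5 CPM in EtOH replicates 1 to 4. The log2 change was -1.71 ± 0.15 (SE) with adjusted p = 0.00475. It was the 1 gene of 26 that fell, with 0 rises, and the list's median was -0.37. At an unadjusted p under 0.05, 14 of the 26 had lower values and 1 a higher value. DESeq2 called 7 lower and 1 higher, and limma-voom 2 lower and 1 higher. The sterol demethylase Cyp51 stood at 342, 281 and 485 CPM after olive oil and 203, 146, 146 and 109.8 CPM after EtOH, with a log2 change of -1.29 ± 0.24 (SE) and adjusted p = 0.0779, so its groups did not overlap but it did not pass. Mvd, an enzyme of the mevalonate pathway, had a change of -0.46 ± 0.09 (SE) that did not pass. Tm7sf2, a sterol reductase, lay the other way at 0.58 ± 0.12 (SE). Its exons overlap those of Vps51, so their reads may not be separable.

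In fatty acid synthesis Me1, the malic enzyme that yields NADPH, was the 1 of 18 genes that passed. Me1 fell from 549.9, 544 and 668 to 359, 398, 370.0 and 365 CPM, a change of -0.65 ± 0.09 (SE).

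Genes of fatty acid oxidation and PPARA targets had a median log2 change of 0.24, and of 40 tested 1 rose and 1 fell, the latter being Cyp4a12a. Vnn1, the pantetheinase that is a PPARA target, rose from 152, 155 and 129 to 229.9, 206, 279.5 and 213 CPM, a change of 0.67 ± 0.12 (SE) with adjusted p = 0.0391. Values were higher at an unadjusted p under 0.05 in 17 of the 40 and lower in 3. Over all genes tested 1984 of 15478 had such a p in either direction. Slc25a20, the carnitine carrier, stood at 66.4, 64.4 and 52.8 CPM after olive oil and 82.1, 85.8, 94.6 and 77.3 CPM after EtOH, and the lipid droplet protein Plin2 at 89.7, 88.2 and 100.1 CPM after olive oil and 113, 128, 165 and 135 CPM after EtOH. For both the EtOH libraries were all higher, and neither passed, at adjusted p of 0.0779 and 0.0843. Angptl4, a lipase inhibitor and PPAR target, overlapped between groups at 43.7, 55.6 and 22.9 CPM after olive oil and 69.1, 65.0, 34.6 and 52.9 CPM after EtOH. Acox3, a peroxisomal oxidase of branched fatty acids that is outside this list, fell from 435, 426 and 501 to 277.7, 285, 260.2 and 292 CPM, and its exons overlap the predicted gene 4931431C16Rik on the other strand, which fell as well.

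Among carriers and transporters, Gc rose and Slc22a7 fell. Gc, the vitamin D binding protein, stood at 30.9, 38.6 and 30.6 CPM in olive oil replicates 1 to 3 and 176, 147, 144 and 109 CPM in EtOH replicates 1 to 4. EtOH replicate 4 was the lowest of its group and still far above the highest olive oil library. Gc had a log2 change of 2.11 ± 0.17 (SE) and adjusted p = 0.00411. With the adrenal cortex level as covariate its change was 1.71, with an adjusted p of 0.0131 in edgeR. That fit rests largely on EtOH replicate 4.

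Slc22a7, an organic anion transporter, stood at 313, 203 and 190.3 CPM in olive oil replicates 1 to 3 and 35.0, 54.2, 25.9 and 41.3 CPM in EtOH replicates 1 to 4. Olive oil replicate 3 was the lowest of its group and stood far above the highest EtOH library. Its log2 change was -2.59 ± 0.28 (SE) with adjusted p = 0.0178. Of 36 organic anion and cation transporters 2 fell and 0 rose, with a median of -0.0065. The other was Slco3a1, at 242, 219 and 289 CPM after olive oil and 158, 176, 149.8 and 180.3 CPM after EtOH. The organic cation transporter Slc22a2 had 452, 477 and 566 CPM after olive oil and 364, 370.4, 300.4 and 362 CPM after EtOH and adjusted p = 0.0694. Abcb1a, a drug efflux pump, had 8.48, 7.03 and 7.39 CPM after olive oil and 20.8, 16.2, 23.3 and 11.4 CPM after EtOH, with EtOH replicate 4 the lowest of its group and adjusted p = 0.0575.

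Slc5a10, a sodium-coupled transporter of mannose and fructose in the kidney, stood at 219.8, 191 and 146 CPM in olive oil replicates 1 to 3 and 501, 462, 584 and 596 CPM in EtOH replicates 1 to 4. EtOH replicate 4 was the highest, and the log2 change was 1.53 ± 0.15 (SE) with adjusted p = 0.00475. Fam83g, whose exons overlap those of Slc5a10 by 206 bases on the opposite strand, also rose, at 75.6, 71.2 and 50.4 CPM after olive oil and 155, 132, 162 and 164 CPM after EtOH. The sources used here do not give whether the counting used strand, and these may not be separate changes. None of the other 22 of 23 genes of sugar transport and glucose synthesis passed, and the list's median was 0.23. Slc13a1, the sulfate transporter of the proximal tubule, rose from 465, 448 and 352 to 658, 679, 818 and 798 CPM.

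Vitamin D genes moved apart. Beside the rise of Gc, S100g, the calcium-binding calbindin of vitamin D target cells, fell from 395, 425 and 387 to 252, 205, 269.7 and 269 CPM with a change of -0.69 ± 0.10 (SE). Cyp27b1, the 1-alpha-hydroxylase that makes active vitamin D, stood at 9.51, 28.9 and 10.7 CPM after olive oil and 0.622, 2.99, 0.668 and 1.41 CPM after EtOH. Its groups did not overlap and its log2 change was -3.53 ± 0.64 (SE), but with the wide spread in olive oil it did not pass, at adjusted p = 0.0843. Calb1, a further calcium-binding protein, had 562, 619 and 549.8 CPM after olive oil and 363, 411, 343 and 491 CPM after EtOH and adjusted p = 0.0990, and Cubn, a receptor for vitamin D carrier complexes, 770.5, 773 and 849 CPM after olive oil and 1117, 1055, 925 and 1009 CPM after EtOH and adjusted p = 0.123. Of the 19 genes of the list 1 rose and 1 fell.

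Of 19 apolipoproteins and carrier proteins, 3 rose and 0 fell: Gc, Apoc3 and Apob. Apoc3, which slows the clearance of triglyceride-rich particles, rose from 9.68, 8.05 and 4.51 to 20.3, 27.4, 32.5 and 25.3 CPM, a change of 1.83 ± 0.26 (SE). Apob, the structural protein of lipoproteins, rose from 416, 365 and 407 to 509, 532, 603 and 559.7 CPM, a change of 0.48 ± 0.09 (SE). Among liver genes Alb was at 77.2, 149 and 103 CPM after olive oil and 50.0, 122, 67.4 and 97.4 CPM after EtOH, and of 14 hepatocyte genes tested 1 rose, Apob, with a median of -0.085. The summed level of the hepatocyte list was 729.8 to 830.9 CPM after olive oil and 822.6 to 1096 CPM after EtOH, with every marker detected in both groups, and its part in these results was not tested.

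Glutathione transferases led the list of NRF2 and glutathione genes, of which 2 of 40 rose and 0 fell. Mgst1, a microsomal enzyme that conjugates glutathione to toxic compounds, stood at 69.6, 74.1 and 62.8 CPM in olive oil replicates 1 to 3 and 166, 227, 263.6 and 202 CPM in EtOH replicates 1 to 4. Every EtOH library was higher than every olive oil library, with a log2 change of 1.64 ± 0.15 (SE) and adjusted p = 0.00474. Mgst3 rose from 76.6, 82.6 and 72.9 to 122, 125, 130.4 and 115 CPM, a change of 0.67 ± 0.08 (SE). Cbr1, a carbonyl reductase, stood at 32.3, 36.7 and 23.6 CPM after olive oil and 99.5, 62.4, 156 and 87.3 CPM after EtOH and Abcc3, an exporter of conjugates, at 5.86, 5.67 and 3.09 CPM after olive oil and 15.2, 13.1, 10.6 and 8.55 CPM after EtOH. These were above olive oil in all 4 libraries but missed the threshold, at adjusted p of 0.0960 and 0.0721, and both passed in the fit of all 14 libraries. Hmox1, the heme oxygenase that NRF2 induces, overlapped between groups at 41.7, 44.9 and 33.1 CPM after olive oil and 20.8, 51.3, 44.8 and 46.6 CPM after EtOH. The list's median was 0.021.

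Of 16 genes of ethanol and aldehyde metabolism 1 rose and 0 fell. It was Aldh1a1, an aldehyde dehydrogenase that makes retinoic acid, which stood at 25.2, 22.6 and 15.1 CPM in olive oil replicates 1 to 3 and 41.6, 50.3, 57.4 and 62.2 CPM in EtOH replicates 1 to 4. Its log2 change was 1.33 ± 0.20 (SE) with adjusted p = 0.0328, and EtOH replicate 4 was the highest. Aldh2, the mitochondrial enzyme that clears acetaldehyde, was at 661, 733 and 717 CPM after olive oil and 789, 838, 810.1 and 814 CPM after EtOH, above olive oil in all libraries by a log2 change of 0.21 ± 0.08 (SE), and did not pass, at adjusted p = 0.283. Cyp2e1, the ethanol-inducible cytochrome, was at 1342, 1581 and 2587 CPM after olive oil and 1123, 1208, 1144 and 1572 CPM after EtOH, a change of -0.54 ± 0.23 (SE) with adjusted p = 0.368, and Adh1, the alcohol dehydrogenase, at 454, 403 and 816 CPM after olive oil and 400.1, 429, 517 and 605 CPM after EtOH with adjusted p = 0.833. Olive oil replicate 3 was the highest of all 7 for both genes, and the groups overlapped.

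Several acute phase genes had higher values after EtOH that did not pass in edgeR. At an unadjusted p under 0.05, 6 of 24 were higher and 3 lower. DESeq2 called 5 higher, among them Hp, C3 and Serpina3n, and 2 lower, and limma-voom 0 higher and 1 lower. Hp, the haemoglobin-binding haptoglobin, stood at 23.2, 13.2 and 12.1 CPM after olive oil and 68.4, 98.7, 44.8 and 85.6 CPM after EtOH, a change of 2.21 ± 0.36 (SE) with adjusted p = 0.0638. C3, the central complement protein, stood at 247, 146 and 170.2 CPM after olive oil and 324, 516, 462 and 394 CPM after EtOH, with adjusted p = 0.0694, and the protease inhibitor Serpina3n at 10.5, 4.39 and 4.40 CPM after olive oil and 13.8, 30.8, 20.9 and 26.4 CPM after EtOH, with adjusted p = 0.123. The groups did not overlap for these genes. Of 24 genes 1 fell, Itih2, a chain of the hyaluronan-binding inter-alpha-trypsin inhibitor, from 13.2, 11.2 and 15.98 to 4.83, 6.75, 3.72 and 3.57 CPM. Lrg1, a leucine-rich glycoprotein induced in inflammation, is outside the list and rose from 4.27, 3.96 and 3.35 to 8.18, 10.9, 8.36 and 11.4 CPM.

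Markers of tubule injury did not pass. Of 23 tested 0 passed in edgeR, 5 had an unadjusted p under 0.05, and DESeq2 and limma-voom called 1 each. Havcr1, which encodes the injury marker KIM-1, was at 11.5, 6.52 and 5.13 CPM after olive oil and 5.40, 4.14, 3.29 and 4.86 CPM after EtOH, a change of -0.80 ± 0.28 (SE). Lcn2, which encodes the injury marker NGAL, was at 10.2, 3.54 and 3.72 CPM after olive oil and 10.6, 17.8, 12.5 and 28.0 CPM after EtOH, with olive oil replicate 1 near the lower EtOH libraries and adjusted p = 0.259. Of 30 extracellular matrix genes 0 passed in edgeR, 5 had an unadjusted p under 0.05, DESeq2 called 2 and limma-voom 1. Their summed level was 4814 to 5688 CPM after olive oil and 3767 to 5272 CPM after EtOH.

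Few markers of kidney segments passed. Of 30 proximal tubule genes 1 fell, Ggt1, the gamma-glutamyl transferase of the brush border, from 1425, 1367 and 1592 to 984, 1044, 992 and 1010.2 CPM. Of 13 podocyte genes 1 rose, the cell cycle inhibitor Cdkn1c, from 15.3, 12.5 and 12.9 to 21.0, 25.5, 25.7 and 19.7 CPM. Medians were 0.031 for the proximal tubule, -0.013 for loop and distal tubule, 0.14 for the collecting duct, 0.16 for podocytes and 0.12 for endothelium. In loop and distal tubule, collecting duct and endothelium edgeR called 0 genes, with 5, 1 and 1 at an unadjusted p under 0.05, DESeq2 called 2, 0 and 0, and limma-voom 0 in each.

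In 9 further lists edgeR called 0 genes. They hold genes of B cells, immediate early response, circadian clock, glucocorticoid response, endoplasmic reticulum stress, cell cycle, oxidative phosphorylation, renin-angiotensin and water balance, with 0, 3, 1, 3, 3, 2, 4, 6 and 1 genes at an unadjusted p under 0.05. DESeq2 called 1 immediate early and 2 renin-angiotensin genes, and limma-voom 0. The clock gene Per1 stood at 20.3, 14.9 and 37.8 CPM after olive oil and 54.2, 42.8, 33.1 and 19.4 CPM after EtOH and varied widely within both groups. The angiotensin-converting enzyme Ace stood at 327, 289 and 474 CPM after olive oil and 189.5, 269, 172 and 204 CPM after EtOH, with adjusted p = 0.147.

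Further leading genes belong to none of these lists. Hs6st2, a heparan sulfate sulfotransferase, fell from 9.56, 6.39 and 9.95 to 2.15, 4.19, 2.20 and 2.95 CPM, and Nxpe3 from 35.1, 32.6 and 31.9 to 12.7, 13.5, 12.5 and 17.8 CPM. Reep6, a shaping protein of the endoplasmic reticulum, rose from 61.7, 64.6 and 44.0 to 109.6, 161, 166 and 149 CPM. Gper1, a G protein-coupled estrogen receptor, rose from 1.37, 1.62 and 1.52 to 3.83, 3.71, 3.10 and 4.24 CPM and Lgi2 from 0.342, 0.256 and 0.210 to 1.29, 0.867, 1.38 and 1.48 CPM, both at low levels. Trank1 had the largest fitted rise of the called genes named here, 3.64 ± 0.61 (SE), from 0.398, 0.383 and 0.210 to 2.87, 5.06, 7.35 and 1.48 CPM. It did not pass in limma-voom, at adjusted p of 0.152, or in the edgeR fit of all 14 libraries, at 0.0535. EtOH replicate 4, which held no Cyp21a1, was the lowest EtOH library for Trank1, and the part of adrenal RNA in this rise was not tested.

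Other cell types also varied inside the EtOH group. The blood list summed to 1669 to 2293 CPM after olive oil and 2820 to 3188 CPM after EtOH with no overlap. Hba-a1, an alpha globin that shares its reads with the identical Hba-a2, had 744, 548 and 631 CPM after olive oil and 975, 899, 946 and 1009 CPM after EtOH and adjusted p = 0.0529, and 0 of 8 blood genes passed in edgeR, with 6 at an unadjusted p under 0.05, 4 called by DESeq2 and 2 by limma-voom. The adipocyte list summed to 127.7 to 379 CPM after olive oil and 307.9 to 1190 CPM after EtOH, highest in EtOH replicate 1, and the neutrophil list to 6.603 to 17.19 and 7.316 to 210.5 CPM, highest in EtOH replicate 4. In edgeR 0 of 11 and 0 of 6 passed, with 1 and 0 at an unadjusted p under 0.05, 1 and 0 by DESeq2, and 0 by limma-voom. All members of the blood list were detected in both groups, and the part of these cells in the results above was not tested.

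The remaining libraries of the series show where the 94 genes stood after CCl4. This is a description with no test, on CPM scaled over all 14 libraries. The same olive oil libraries helped to choose the 94, and shares over all genes were not computed for the CCl4 libraries. For EtOH replicate 4, 27.3% of all genes tested lay above every olive oil library and 27.7% below. That share does not carry over to the CCl4 libraries, so the counts that follow have no background to be judged by. After 6 weeks of CCl4 54 and 54 of the 94 genes, by library, lay outside the olive oil range on the side of the EtOH change, but 9 and 10 reached the nearest EtOH library. After 6 weeks of CCl4 and 4 more at a reduced dose, which lasts as long as the EtOH course, these counts were 39 and 33, and 2 and 3. After CCl4 and then EtOH they were 73, 79 and 82, and 57, 58 and 62.

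On that scale Gc stood at 61.6 and 60.1 CPM after 6 weeks of CCl4, at 36.5 and 35.6 CPM after the longer course and at 579.8, 587 and 293 CPM after CCl4 and EtOH, above the 182, 151, 148 and 112 CPM after EtOH alone. Slc22a7 stood at 123 and 127, 190.1 and 224, and 18.8, 5.004 and 15.6 CPM in the same order, and Kap at 21747 and 20484, 29404 and 30440.0, and 4872, 1969 and 3269.7 CPM. Both were thus lower still after CCl4 and EtOH than after EtOH alone.

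Class II genes went the other way in the combined group. H2-Eb1 stood at 198, 281 and 142 CPM after CCl4 and EtOH, H2-Aa at 252, 388 and 189 CPM and Cd74 at 560.2, 796 and 403 CPM. All these values exceed every olive oil library, where H2-Eb1 stood at 95.1, 98.5 and 116 CPM on this scale. Cyp27b1, low in all EtOH kidneys, was at 12.2, 49.4 and 5.61 CPM after CCl4 and EtOH. Mgst1, at 173, 233, 270.8 and 209 CPM after EtOH, was at 98.5, 141 and 148 CPM after CCl4 and EtOH, all above olive oil.

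**Figure D4:**
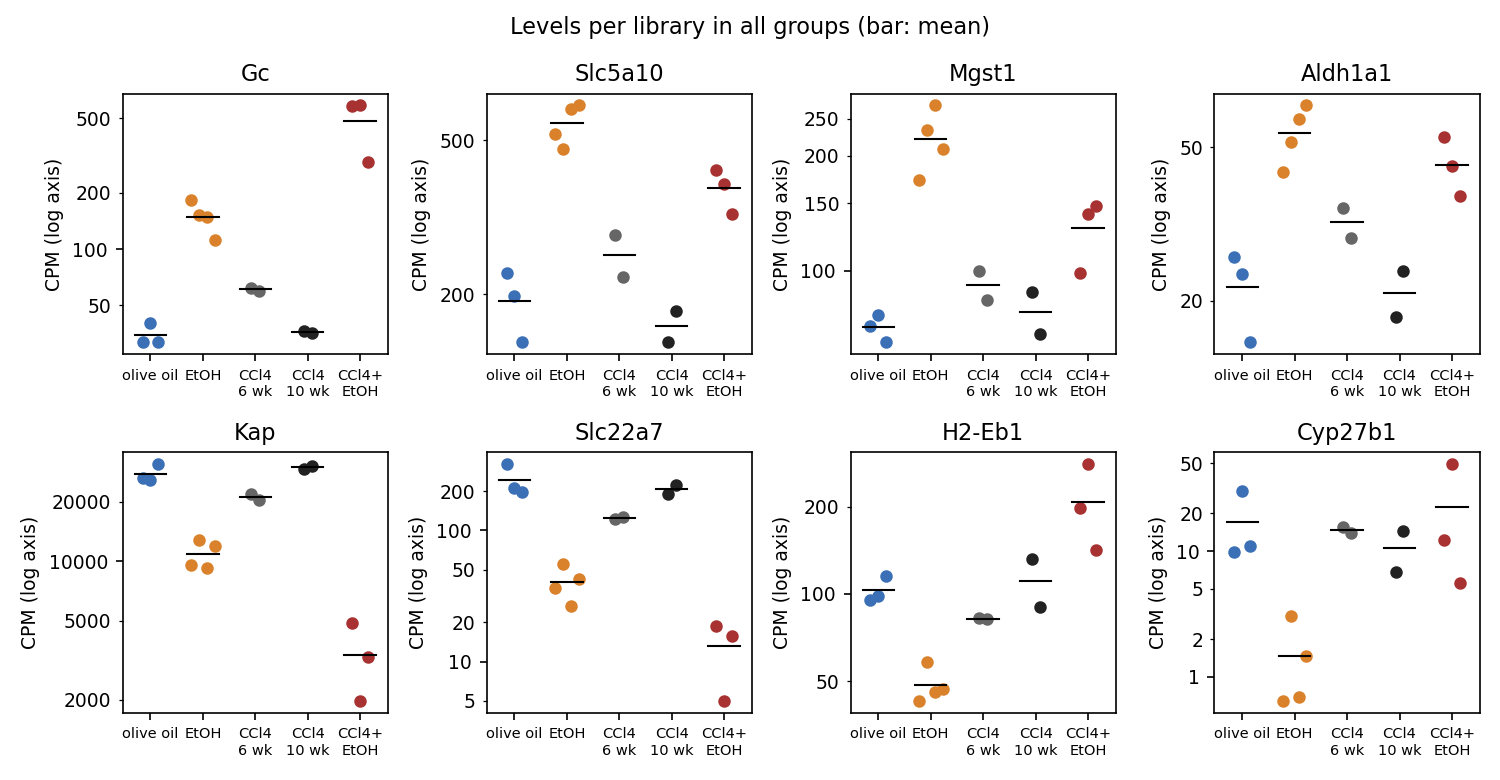
CPM of 8 genes in each of the 14 libraries on a log axis, with bars at the group means: olive oil (n = 3), EtOH (n = 4), CCl4 for 6 weeks (n = 2), CCl4 for 10 weeks in all (n = 2) and CCl4 followed by EtOH (n = 3). Kap and Slc22a7 are lowest after CCl4 and EtOH, while H2-Eb1 is low after EtOH and above olive oil after CCl4 and EtOH.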

How the data were processed

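RNA of frozen kidneys was extracted with a spin-column kit and sequenced by a standard Illumina procedure, per the labels' protocols. The authors deposited raw read counts per gene symbol with no normalization. GSNAP and mm9 are named per the submitters' processing notes. Counting program, annotation and strandedness were not given in the sources used here. Of 23893 rows, 27 carried a calendar date as name (0.168% to 0.209% of counts) and were left out. Replicates differed by more than sampling noise (chi-square per gene at least 12.7).

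EtOH and olive oil libraries were compared with edgeR 4.0.16 in R 4.3.3 (filterByExpr, TMM, robust quasi-likelihood F test, Benjamini-Hochberg adjustment over all genes tested, threshold 0.05), in a fit of these 7 libraries, so that the wide spread after CCl4 and EtOH does not enter. All adjusted p printed are from this test unless another tool is named. SE is the absolute log2 change over the root of F. Members, lists and the choice of libraries in the fit were made with earlier results of these data known. Named were the 12 largest rises and falls past the threshold, if the higher group averaged 1 CPM or more and groups did not overlap, without adrenal and predicted genes, up to 4 members of each of 38 lists by smallest p, and 13 genes always given, such as Gc, Kap, Havcr1 and Hmox1. Other genes were chosen after their values were seen: Ciita, Cyp7b1, Acsm3, Slc7a12, Prlr, H2-DMa, Alb, Slc13a1, Fam83g, Acox3, Cd5l, 4931431C16Rik, the dendritic cell genes other than Xcr1, and adrenal genes other than Cyp21a1, Star and Chga. Some genes are not reported here.

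Alternatives were other scalings, filters and libraries, DESeq2 1.42.0, limma-voom (limma 3.58.1), the adrenal level as a covariate, and each library left out. On simulated data with 200 of 15478 genes changed, 50.7% of 1.5-fold, 85.1% of 2-fold and 93.9% of 4-fold changes were recovered, and 13 of 166 calls were false (7.83%). The changed genes were drawn from those averaging 1 CPM or more, so recovery of lower genes was not measured. Adrenal or other foreign RNA in single libraries was not simulated.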

Additional observations from a re-analysis of the deposited data

Results flagged for a closer look

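Among 159 named genes, 8 had an EtOH library whose gap to the others exceeded Dixon's 95% critical value for 4 samples. Chance does so for about 1 in 20 groups, which is close to the share seen here. EtOH replicate 4 was far above the other EtOH libraries for the neutrophil genes S100a8 (54.3 against 1.865 to 7.999 CPM), Ltf (28.3 against 0.1435 to 1.156 CPM) and Ngp (23.9 against 0 to 1.108 CPM). It was higher by a smaller ratio for Hbb-b1, a beta globin (643.5 against 544.2 to 551.5 CPM). The same held for Pvalb, a calcium-binding protein of the distal convoluted tubule (27.4 against 16.91 to 17.98 CPM). EtOH replicate 4 was the lowest for Plvap, a protein of endothelial fenestrae (96.1 CPM). EtOH replicate 1 was the highest for the adipocyte hormone Adipoq (56.95 CPM), and EtOH replicate 3 the lowest for the cation transporter Slc22a2 (300.4 CPM).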

How the results depend on the processing

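The count of 94 genes was 94 with DESeq2 size factors, 98 with upper-quartile factors and 117 with no filter on low counts. The count was 95 with a filter of 1 CPM in 3 libraries and 97 without the listed adrenal genes. It was 591 with DESeq2, 161 with limma-voom, 27 over all 14 libraries, 192 over all but the CCl4+EtOH libraries (81 shared with the 94), 1 with EtOH replicate 4 alone for its group (Ltf) and 2 with the adrenal cortex level as a covariate. Leaving out 1 library gave 37 to 157: 53, 41 and 87 without olive oil replicates 1, 2 and 3, and 49, 72, 37 and 157 without EtOH replicates 1, 2, 3 and 4. The 25 list members called became 99 with DESeq2, 12 over 14 libraries, 39 without CCl4+EtOH, 1 with EtOH replicate 4 alone, 1 with the covariate and 15 to 31 with a library left out. The 0 adrenal genes became 18 with DESeq2, 1 without CCl4+EtOH and 0 to 18 with a library left out. The cause of these differences was not tested.

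Of the 37 named genes that were called, none changed direction in any alternative, and 19 to 35 passed with a library left out. Among genes that were not called, these changed sign. With the covariate Nr5a1 was at -2.00, Atp6v0d2 at 0.017, Per1 at -0.27, Adh1 at 0.11 and Ms4a1 at -0.48. With EtOH replicate 4 alone Cyp21a1 was at -3.87, Atp6v0d2 at 0.027, Per1 at -0.32, Adh1 at 0.12 and Ms4a1 at -0.64. With limma-voom Adh1 was at 0.043. With a library left out Tat ranged from -0.77 to 0.013, Igj from -0.0091 to 0.73, Adh1 from -0.38 to 0.18, Ms4a1 from -0.21 to 0.63 and Hmox1 from -0.099 to 0.25.

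Scaling moved the median of all genes to between -0.0067 and 0.0076. No paired analysis was possible because each label carries its own mouse number and the groups share none. Depth limits low genes: 3 counts are 0.127 to 0.183 CPM in these libraries.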

Other observations

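Bdh1, Oxct1 and Acat1, enzymes that use ketone bodies, fell. These genes, and those in the next paragraph, were chosen after their values were seen. Bdh1, which interconverts the ketone bodies, fell from 197, 157 and 202 to 102, 123, 96.1 and 95.1 CPM (log2 change -0.83 ± 0.12 (SE)), Oxct1, which activates acetoacetate, from 2014, 2002 and 1786 to 1275, 1427, 1304 and 1394 CPM (-0.52 ± 0.09 (SE)), and Acat1, which splits acetoacetyl-CoA, from 1026, 1015 and 1194 to 663, 780.3, 694 and 752 CPM (-0.58 ± 0.10 (SE)). Each EtOH library lay below each olive oil library. Adjusted p were 0.0178 for Bdh1, 0.0371 for Oxct1 and 0.0330 for Acat1. In the fit of all 14 libraries they were 0.0121, 0.309 and 0.218, so Oxct1 and Acat1 did not pass there. Slc16a1, a monocarboxylate carrier, was looked at with them and did not pass, at -0.03. Exons of Oxct1 overlap those of BC037032 on the other strand.

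Retsat, a retinol saturase, rose from 299, 353 and 252 to 468, 598, 510.3 and 527 CPM and Rdh1, a retinol dehydrogenase, from 3.47, 4.35 and 3.61 to 7.60, 6.51, 9.02 and 7.38 CPM, beside the rise of Aldh1a1, while Rdh5, another retinol dehydrogenase, fell from 8.37, 10.5 and 9.80 to 5.55, 5.49, 5.16 and 6.33 CPM. The retinoid genes Rdh7, Rdh16, Aldh1a2, Aldh1a3, Rbp4, Cyp26b1 and Rarb were looked at as well and did not pass, with log2 changes from -0.81 to 1.17. Ggct, a gamma-glutamyl cyclotransferase, fell from 39.0, 38.3 and 41.8 to 21.4, 27.2, 16.6 and 23.4 CPM, Cndp2, a dipeptidase, from 1377, 1166 and 1415 to 632, 819, 497 and 768 CPM, and Cbs, the cystathionine synthase, from 287, 263.5 and 306 to 185, 219, 166 and 194 CPM. The kallikreins Klk1, Klk1b4 and Klk1b5, near-identical proteases that may share reads, fell, with log2 changes of -0.64, -0.76 and -0.71. Klk1b3, at -0.50 with adjusted p = 0.0991, and Klk1b26, which lay the other way at 0.44 with adjusted p = 0.709, did not pass. In the fit of all 14 libraries Retsat, Rdh1, Rdh5, Ggct, Cndp2, Cbs, Klk1, Klk1b4 and Klk1b5 did not pass either. Their adjusted p there ran from 0.0557 for Cbs to 0.305 for Retsat.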
